A study of Rattus norvegicus with 8 samples.

Results

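The genes that start, elongate and charge protein synthesis were followed in PC12 cells, a line grown from a pheochromocytoma of the rat adrenal medulla, with and without forskolin. They were chosen by gene symbol alone. A probe set, the group of probes on an array that reads 1 transcript, belonged here if its single symbol began with Eif or Eef and a digit, or was 1 to 3 letters followed by ars, ars1 or ars2. This gave 146 probe sets of the 31142 in the series, 91 of the 15866 of chip A and 55 of the 15276 of chip B, and they stood for 88 of the 13810 genes with a symbol. Of these genes 77 were on chip A, 44 on chip B and 33 on both, and 3 probe sets were carried by both chips. The classes were 40 genes of initiation factors, 4 kinases that phosphorylate eIF2, 4 proteins that bind eIF4E, 7 elongation factor genes, 4 genes whose products modify elongation factors, 16 cytosolic and 13 mitochondrial aminoacyl-tRNA synthetases. The name pattern leaves out some synthetase subunits, such as Eprs1, Farsa and Farsb, which are described with the wider pathway.

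Each chip was hybridised with total RNA from 2 arrays of cells given forskolin and 2 arrays with no forskolin, numbered replicate 1 and 2 in the labels, so that 8 arrays formed 4 groups. Forskolin, a plant diterpene, activates adenylyl cyclase and so raises cyclic AMP. The labels used here state no dose and no duration for forskolin, and describe the control as no forskolin and as inactive without saying more. Nothing in the labels says that replicates were separate cultures, so every p-value measures only the spread between these arrays, which may be technical. All values are log2 expression values as deposited, and every change is forskolin minus no forskolin on that scale.

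As a check of the labels, 4 of 5 probe sets of the cyclic AMP-responsive genes Fos, Nr4a1 and Dusp1 rose on chip A, by 2.77 to 4.17, while the remaining Fos probe set measured 0.06. Of 8 chromaffin cell markers 7 had probe sets, all on chip A, and 5 passed the brightness filter described below. Th, Phox2a and Chgb lay at 11.64, 12.02 and 11.82 without forskolin, Chga at 9.40 and Ddc at 7.52 and 7.58. Phox2a rose by 0.41, and Dbh and Slc18a1 were under the filter. Among fibroblast markers, Col3a1 lay at 11.82 without forskolin, Col1a1 at 9.11 and 9.13 and Dcn at 7.90. The levels of chromaffin and fibroblast markers thus overlapped. Of the markers of other cells, 3 of 5 fibroblast genes (Col1a1, Col3a1, Dcn), 2 of 4 glial (Gfap, Mbp), 1 of 5 of blood and endothelium (Hbb) and 3 of 5 of adrenal cortex (Cyp11a1, Cyp21a1, Nr5a1) passed the filter on at least 1 chip, and limma called none of them, with changes from -0.04 to 0.14. Array medians lay within 0.021 (chip A) and 0.025 (chip B) of each other. In RNA from a whole culture, fewer cells of a kind and less RNA per cell cannot be told apart.

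Translation of most messenger RNAs begins when eIF2, loaded with GTP and the initiator methionyl-tRNA, joins eIF1, eIF1A, eIF3 and the small ribosomal subunit, and when eIF4F, made of the cap-binding eIF4E, the scaffold eIF4G and the helicase eIF4A, brings in the messenger. The exchange factor eIF2B recharges eIF2 with GTP, and stress kinases that phosphorylate eIF2 block this step, which lowers general protein synthesis but favours translation of ATF4. ATF4 in turn activates amino acid transporters, biosynthetic enzymes and many cytosolic tRNA synthetases through C/EBP-ATF elements in their promoters. The aminoacyl-tRNA synthetases attach each amino acid to its tRNA, with separate genes for most of the mitochondrial enzymes, and eEF1A then delivers the charged tRNA to the ribosome while eEF2 moves the ribosome along.

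The promoter sequences of the class show which members carry the elements through which cyclic AMP and ATF4 are known to act. Windows from 250 bases before to 50 bases after the RefSeq start (build GRCr8, read on the gene's strand) were found for 81 of the 88 genes. The C/EBP-ATF element, searched as TGATGNAA on both strands, was present in 7 of 14 cytosolic synthetase windows, in 0 of 13 mitochondrial ones and in 1 of 37 windows of initiation factors, against 4.16% of 27457 genes with such a window. The 7 synthetases were Aars1, Cars1, Iars1, Mars1, Nars1, Tars1 and Yars1, for alanine, cysteine, isoleucine, methionine, asparagine, threonine and tyrosine, and the initiation factor was Eif2s2. The stretches below are 30 bases each, for 5 of these synthetases and Eif2s2, and are shown because they put the same short element beside enzymes whose levels are compared further on. Capitals mark the element in either orientation.
Cars1: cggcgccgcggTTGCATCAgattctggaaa
Iars1: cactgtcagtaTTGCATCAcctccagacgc
Mars1: gcccgttccggTTGCATCAgcgtgggctcc
Tars1: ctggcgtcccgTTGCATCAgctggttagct
Yars1: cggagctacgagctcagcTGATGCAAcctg
Eif2s2: ttccctttcgcTGATGCAAgagcctagcgc
They lie at chr1:208225334-208225363 (minus strand), chr17:15193658-15193687 (minus), chr7:65023752-65023781 (minus), chr2:62114811-62114840 (minus), chr5:146820183-146820212 (plus) and chr3:163855588-163855617 (minus). Counted from the start, the first base of the element lay between -36 in Eif2s2 and 39 in Yars1 among the stretches shown.

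The full cyclic AMP response element, TGACGTCA, was present in the window of 1 gene, Eef2, against 2% of all genes. It is printed because Eef2, the translocase of elongation, is the member with the classical target sequence of CREB. Its first base is at -31 from the start (chr7:9189251-9189280, minus strand).
Eef2: aggccgggcgtTGACGTCAgcggtctcttc
The core TGACG, which every full element contains, was present in 35 of 81 windows (43.2%) against 23% of all genes. These windows also hold more CG dinucleotides, with a median of 22 per window against 7.5 over all genes, and the part of that in the count was not tested. The promoter of Eif2ak2 is shown because its transcript was the only member called. In its 250 bases before the start (chr6:21940904-21941153, plus strand), capitals mark an interferon-type element, GAAA repeated after any 2 bases, which was searched on both strands after the value of Eif2ak2 had been seen.
Eif2ak2: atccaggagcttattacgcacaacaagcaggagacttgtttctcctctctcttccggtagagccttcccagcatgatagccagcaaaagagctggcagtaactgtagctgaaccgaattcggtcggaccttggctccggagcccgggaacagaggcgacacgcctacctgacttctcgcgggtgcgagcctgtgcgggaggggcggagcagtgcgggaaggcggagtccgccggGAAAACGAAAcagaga
The first base of that element is at -16, and 5 of 81 member windows hold it (6.17%) against 4.12% of all genes. The others were Eif3k, Eif2a, Eif6 and Eif2s3. A match is a description of the letters and does not show that a factor binds there.

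Of all the members tested on chip A or chip B, limma called 1 transcript changed by forskolin, that of Eif2ak2, measured on chip A only. On chip A, 88 of 91 probe sets passed the filter on brightness, which keeps probe sets whose mean linear value is at or above the 30th percentile of the chip, and all 77 genes on that chip kept at least 1 tested probe set. Of the 88 probe sets, 1 was called lower and 0 higher at an adjusted p under 0.05 in limma, where 1.26% of all tested probe sets of the chip were called lower, 2.03% higher and 3.3% in either direction. Before adjustment, 3 members had higher and 12 lower values at p under 0.05, against 7.1% and 10.3% over the chip. Changes ran from -0.30 to 0.09 with a median of -0.01, and the median over all 11106 tested probe sets was -0.01. Leaving out single arrays gave member medians from -0.03 to -0.00092, and 52 of the 88 values were below 0, beside 55.0% of the chip. The whole 95% interval lay within 0.32 (log2) either way for 86 of the 88 probe sets, 97.7% against 96.4% of the chip. The exceptions were Eif2ak2 and Vars2. Forskolin arrays lay wholly above the others in 14 probe sets and wholly below in 27, which is 15.9% and 30.7% against 20.4% and 28.0% of the chip.

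On chip B, 48 of 55 probe sets passed the filter and none was called in either direction by limma, with background rates of 0.15% called higher, 0.00935% lower and 0.159% in either direction. Before adjustment 1 member was higher and 1 lower at p under 0.05, where 1.64% and 3.33% of the chip were. Forskolin arrays lay wholly above the controls in 4 members and wholly below in 8, beside 10.4% and 22.2% of the chip, and 33 of 48 values were below 0, beside 61.8%. The precision was lower there, with a median standard error of 0.09 for the members against 0.04 on chip A, and 27 of the 48 intervals (56.2%) lay within 0.32 either way, against 64.9% of the chip. The median change of -0.05, beside -0.03 over all tested probe sets of chip B, rested on the control arrays. Without no forskolin replicate 2 it was 0.02, and without no forskolin replicate 1 it was -0.13. No forskolin replicate 2 gave the highest of the 4 values in 29 of the 48 probe sets (60.4%), and in 38.8% of all tested probe sets of the chip.

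**Figure D1:**
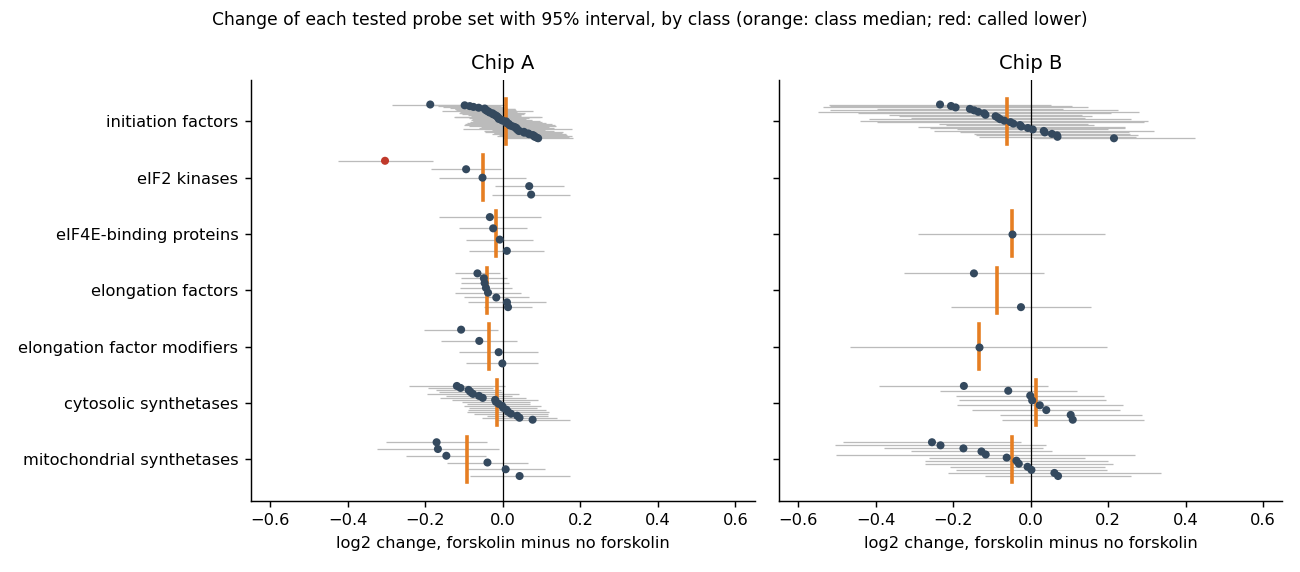
Log2 change (forskolin minus no forskolin) of every tested probe set with its 95% interval from limma, by class and chip; orange bars are class medians, and no eIF2 kinase was on chip B. The 88 probe sets of chip A lie between -0.30 and 0.09, and the point called lower is Eif2ak2.

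**Figure D2:**
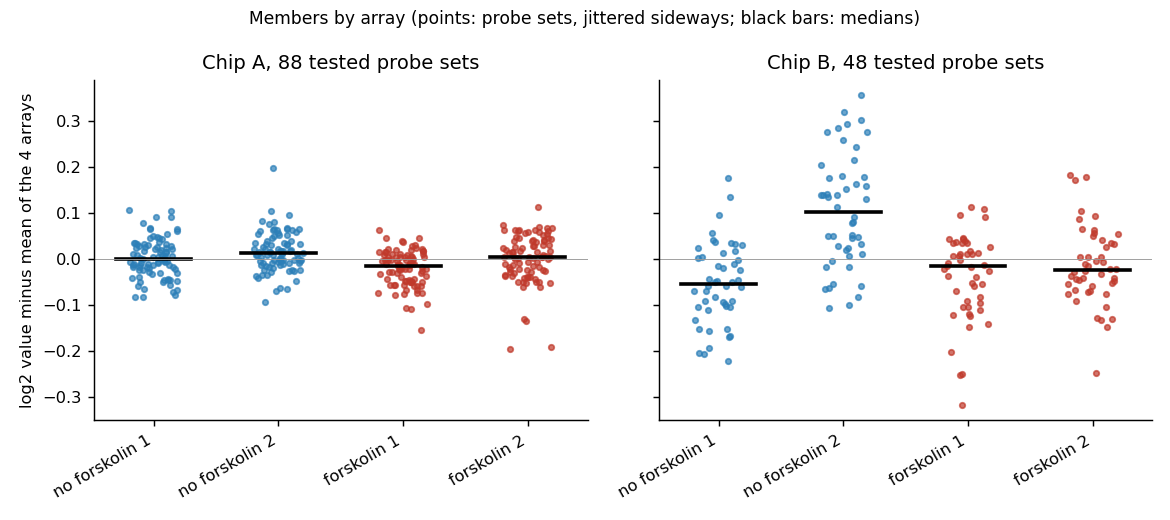
Log2 value of each tested probe set minus its mean over the 4 arrays of its chip, for the 88 members on chip A and the 48 on chip B; black bars are medians. On chip B the points of no forskolin replicate 2 sit highest, with a median of 0.10, and those of no forskolin replicate 1 lowest, with -0.05.

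The transcript that changed was that of Eif2ak2, the kinase PKR, which phosphorylates eIF2 when it binds long RNA duplexes and which interferon induces. Its probe set on chip A read 7.90 and 7.99 without forskolin and 7.68 and 7.60 with it. Both forskolin arrays lay below both control arrays, and the fall of 0.30 ± 0.05 (log2, SE, n = 2 arrays per group) is 1.23-fold (limma adjusted p = 0.0182, 95% interval -0.43 to -0.18). It rests on 1 probe set, and the call was lost without forskolin replicate 2 (change -0.26, limma adjusted p = 0.0900) and with the replicate number as a block (0.108). The adjusted p lay between 0.00218 and 0.108 over the 9 alternatives in which it was tested.

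The other 3 eIF2 kinases were not called. Eif2ak4, the amino acid sensor GCN2, read 8.16 and 8.22 without forskolin and 8.25 and 8.27 with it, a change of 0.07 ± 0.04 with groups that did not overlap. Eif2ak3, the endoplasmic reticulum kinase PERK, read 7.86 and 7.79 without forskolin and 7.74 and 7.80 with it, so that the groups overlapped. Eif2ak1, the haem-regulated kinase HRI, had 2 probe sets with differences of opposite sign. The first read 10.19 and 10.13 without forskolin and 10.04 and 10.08 with it, with the forskolin arrays below (-0.09), and the other read 9.83 and 9.85 without forskolin and 9.88 and 9.94 with it, with the forskolin arrays above (0.07). Neither was called (limma adjusted p = 0.262 and 0.411).

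**Figure D3:**
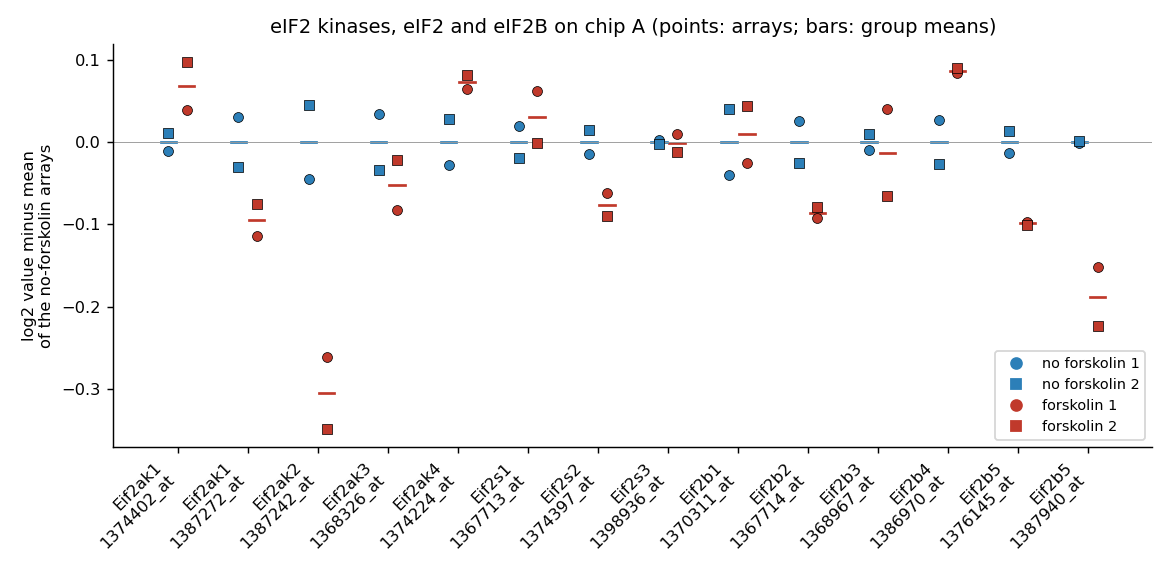
Log2 values of the 14 probe sets of the eIF2 kinases, eIF2 and eIF2B on chip A, each array minus the mean of its 2 no forskolin arrays; circles are replicate 1, squares replicate 2, and bars group means. The forskolin mean of Eif2ak2 (-0.30) is the lowest, and that of a probe set of Eif2b5 (-0.19) is next.

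All 5 subunits of eIF2B, the exchange factor that the eIF2 kinases act against, were measured on chip A and none was called. The catalytic subunit Eif2b5 came nearest to the threshold. Its first probe set read 9.01 and 9.02 without forskolin and 8.86 and 8.79 with it, with a change of -0.19 ± 0.04 (limma adjusted p = 0.0609), and it was called lower with median centring (0.0288) and with the stricter filter (0.0477). Its other probe set read 7.64 and 7.67 without forskolin and 7.56 and 7.55 with it, also with the forskolin arrays below (-0.10, limma adjusted p = 0.306). Eif2b2, a regulatory subunit, read 10.70 and 10.65 without forskolin and 10.58 and 10.59 with it, a change of -0.09 ± 0.04. Eif2b4, another regulatory subunit, had the opposite sign, reading 10.38 and 10.32 without forskolin and 10.43 and 10.44 with it (0.09 ± 0.04, limma adjusted p = 0.271). Eif2b1 measured 0.01 and the catalytic partner Eif2b3 -0.01, both with overlapping groups. The subunits of this complex had values of both signs.

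Among the subunits of eIF2 itself, Eif2s1, which holds the site the kinases phosphorylate, measured 0.03, and Eif2s3, which binds GTP and the initiator tRNA, -0.001 on chip A. Eif2s2, whose promoter holds the C/EBP-ATF element shown above, read 10.78 and 10.81 without forskolin and 10.73 and 10.70 with it, a change of -0.08 ± 0.03 (limma adjusted p = 0.296). The forskolin arrays of Eif2s2 lay below the control arrays. The 2 probe sets of Eif2s3 on chip B measured -0.12 and -0.07. Of the factors that can bring initiator tRNA without eIF2, Eif2d measured 0.07 on chip A, and Eif2a, on chip B, read 8.48 and 8.83 without forskolin and 8.43 and 8.41 with it. Both forskolin arrays of Eif2a lay below both controls, with no forskolin replicate 2 the highest, and the change of -0.23 ± 0.12 was not called (limma adjusted p = 0.977).

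The 11 eIF3 genes on chip A, which encode the large scaffold on the small ribosomal subunit, had small differences. Their changes ran from -0.05 (Eif3k) to 0.04 (Eif3j), and every 95% interval lay within 0.32 either way. Eif3k read 10.53 and 10.53 without forskolin and 10.48 and 10.49 with it, and Eif3b 10.95 and 10.94 without forskolin and 10.90 and 10.92 with it. In Eif3b, Eif3k and Eif3l the forskolin arrays lay below the controls, and in 8 the groups overlapped. That is 27.3% below, beside 28.0% of the chip. On chip B, where 5 of 6 eIF3 probe sets were tested, Eif3a measured -0.13 (chip A 0.01), Eif3c -0.08 (0.01), Eif3j -0.09 (0.04), Eif3k 0.07 (-0.05) and Eif3l 0.04 (-0.03). All 5 had overlapping groups there. The labels do not say whether both chips received RNA of the same cultures.

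Of 4 genes on chip A whose symbols begin with Eif1, 3 had values above 0, none called. Eif1ad, an eIF1A-domain protein, read 9.67 and 9.70 without forskolin and 9.75 and 9.80 with it, a change of 0.09 ± 0.04, the highest of the class on this chip (limma adjusted p = 0.284). Eif1a read 10.08 and 10.10 without forskolin and 10.14 and 10.20 with it (0.08) and Eif1b 9.84 and 9.87 without forskolin and 9.90 and 9.94 with it (0.07), while Eif1ax measured -0.02. Forskolin arrays lay above the controls for the first 3 of these genes and below for Eif1ax, beside 20.4% above and 28.0% below over the chip. The 3 probe sets of Eif1a on chip B gave values below 0, -0.19, -0.15 and -0.08, with overlapping groups. The symbols Eif1a and Eif1ax name closely related sequences, so signal may be shared between their probes.

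The parts of the cap-binding complex eIF4F had values on both sides of 0, none called. Eif4a1, its helicase, read 12.07 and 12.15 without forskolin and 12.17 and 12.22 with it, a change of 0.08 ± 0.03 with the forskolin arrays above (limma adjusted p = 0.275). The related Eif4a2 measured -0.03 on chip A and -0.12 on chip B, and Eif4a3, the helicase of the exon junction complex, -0.06 and -0.04, the latter pair from a probe set carried by both chips. The cap-binding subunit Eif4e measured -0.05 and 0.02 on chip A, in its 2 probe sets there, and 0.07 on the other chip. Its relatives Eif4e2 and Eif4e3 measured 0.05 and 0.08 on chip A, and Eif4e3 -0.16 on chip B. The scaffold Eif4g1 measured 0.05 and -0.04 on chip A and -0.02 and -0.01 on chip B. Eif4g2, which serves cap-independent initiation, measured 0.04 and -0.01 on chip A and 0.03 on chip B, and Eif4g3 0.04 on chip A. The helicase cofactors measured 0.03 and -0.01 for Eif4b, -0.01 for Eif4h on chip A and 0.06 and 0.01 for Eif4h on chip B.

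The proteins that hold eIF4E back were also not called. Eif4ebp1, the main substrate of mTOR complex signalling among them, read 9.96 and 9.91 without forskolin and 9.92 and 9.94 with it, a change of -0.01 ± 0.04. Eif4ebp2 read 10.89 and 11.07 without forskolin and 10.91 and 10.99 with it and Eif4ebp3 9.58 and 9.62 without forskolin and 9.57 and 9.58 with it. Eif4enif1, which carries eIF4E into the nucleus, read 9.82 and 9.88 without forskolin and 9.82 and 9.90 with it on chip A, a change of 0.01, and -0.05 on chip B from the same probe set. The groups overlapped for all 4 genes, and the 95% intervals on chip A lay within 0.32 either way.

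The highest value of the class on chip B was that of Eif5a2. Eif5a2, a tissue-restricted form of the hypusine-containing factor eIF5A, read 9.11 and 9.20 without forskolin and 9.30 and 9.44 with it in its first probe set, a change of 0.22 ± 0.09 with the forskolin arrays above (limma adjusted p = 0.977). Its other probe set on chip B read 8.18 and 8.26 without forskolin and 8.15 and 8.23 with it, with overlapping groups. The common form Eif5a measured -0.02 on chip A, and Eif6, which keeps the large ribosomal subunit from joining early, 0.02. Eif5b, the GTPase of subunit joining, measured 0.02 on chip A. On chip B its probe sets measured -0.21 and -0.05. The first of these read 8.13 and 8.54 without forskolin and 8.17 and 8.08 with it, with no forskolin replicate 2 apart from the other 3 arrays. Over all 24 tested initiation factor probe sets of chip B the median was -0.06, and 0.02 without that array. On chip A the median over 43 probe sets was 0.01, and -0.01 to 0.02 when single arrays were left out.

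The elongation factors had levels without forskolin from 10.57 to 13.25 on chip A and no call. Eef1g, a subunit of the exchange factor of eEF1A, read 12.62 and 12.62 without forskolin and 12.55 and 12.56 with it, a change of -0.07 ± 0.03 (limma adjusted p = 0.234). The forskolin arrays were below. On chip B it read 7.99 and 7.95 without forskolin and 7.80 and 7.84 with it (-0.15, limma adjusted p = 0.977), again with the forskolin arrays below. Eef1b2, another subunit of that factor, read 12.70 and 12.69 without forskolin and 12.67 and 12.63 with it (-0.05 ± 0.03). Eef1a1, which delivers the charged tRNA, read 12.84 and 12.87 without forskolin and 12.82 and 12.79 with it in a probe set whose suffix marks probes shared with other sequences, and 13.28 and 13.23 without forskolin and 13.24 and 13.18 with it in its other one. The changes were -0.05 and -0.04. Eef1a1 has many near-identical copies in the genome, so its values are uncertain.

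Eef1a2, the form of eEF1A found in neurons and muscle, measured -0.04 on chip A and -0.02 on chip B. Eef1d measured 0.01 and Eef1e1, a part of the multi-synthetase complex, -0.02. Eef2, the member with the full cyclic AMP response element, read 12.18 and 12.18 without forskolin and 12.19 and 12.20 with it, a change of 0.01 ± 0.03 with a 95% interval of -0.05 to 0.08 (limma adjusted p = 0.856). The forskolin arrays lay above the controls by less than the standard error, and the interval lies within 0.32 either way. Its probe set on chip B, at 5.88, was under the filter. Over the 8 probe sets of chip A the median was -0.04.

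Of the genes that modify elongation factors, Eef2k encodes the calcium-regulated kinase that inactivates eEF2 and is itself a target of the cyclic AMP-dependent kinase. Its first probe set read 9.21 and 9.28 without forskolin and 9.17 and 9.21 with it, a change of -0.06 ± 0.04 (limma adjusted p = 0.505), and the next read 8.67 and 8.69 without forskolin and 8.67 and 8.68 with it (-0.0015). The remaining 2 probe sets of Eef2k were under the filter. Eef1akmt1, a lysine methyltransferase of eEF1A, read 8.36 and 8.36 without forskolin and 8.26 and 8.25 with it, a change of -0.11 ± 0.04 (limma adjusted p = 0.234) with the forskolin arrays below. Eef1akmt4 measured -0.01, and Eef1akmt2, on chip B, read 7.34 and 7.78 without forskolin and 7.37 and 7.48 with it. None was called.

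None of the 18 tested probe sets of the 16 cytosolic synthetases on chip A was called, and at an unadjusted p under 0.05 limma had 0 higher and 3 lower, beside 7.1% and 10.3% of the chip. Changes ran from -0.12 to 0.08 with a median of -0.01, and all 18 intervals lay within 0.32 either way. Leaving out single arrays gave class medians from -0.05 to -0.0027. Rars1, for arginine, had the smallest p. It read 10.20 and 10.21 without forskolin and 10.08 and 10.12 with it, a change of -0.11 ± 0.04 (limma adjusted p = 0.174). Nars1, for asparagine, read 10.60 and 10.63 without forskolin and 10.50 and 10.55 with it (-0.09 ± 0.04, 0.263), and Qars1, for glutamine, 10.53 and 10.57 without forskolin and 10.45 and 10.48 with it (-0.08 ± 0.04, 0.274). In these 3 genes both forskolin arrays lay below both controls. Over the class this held for 5 of 18 probe sets (27.8%), beside 28.0% of the chip. Hars1, for histidine, read 9.26 and 9.24 without forskolin and 9.21 and 9.06 with it on chip A (-0.12) and 9.22 and 9.41 without forskolin and 9.12 and 9.16 with it on chip B (-0.17, limma adjusted p = 0.977). Its forskolin arrays lay below the controls on both chips.

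Of the 7 synthetases with the C/EBP-ATF element, limma called none on chip A, and 1, Nars1, was lower at an unadjusted p under 0.05. Over the whole chip limma called 3.3% in either direction and had 7.1% higher and 10.3% lower at that unadjusted p. The 9 tested probe sets of these synthetases on chip A had a median change of -0.02, from -0.09 to 0.08. The 7 probe sets of the 7 synthetases whose windows lacked the element had a median of -0.01, from -0.12 to 0.02. Over the 9, the 95% bounds reached no further than -0.20 and 0.17. Aars1 read 10.75 and 10.74 without forskolin and 10.76 and 10.80 with it, Yars1 9.78 and 9.69 without forskolin and 9.76 and 9.79 with it and Iars1 9.82 and 9.86 without forskolin and 9.84 and 9.81 with it. Their changes were 0.04, 0.04 and -0.02. The 3 tested probe sets of Cars1 measured 0.08, 0.0007 and -0.05 on chip A, and that on chip B -0.06. Mars1 measured -0.06 on chip A and 0.02 on chip B, and Tars1 -0.08 on chip A.

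Beside them, 3 genes of the amino acid response list rose on chip A and none fell, where 2.03% of the chip were called higher and 1.26% lower. Of the 14 listed genes 12 were tested on that chip, in 14 probe sets with a median of 0.13. At an unadjusted p under 0.05, limma had 8 of these 14 probe sets higher and 0 lower, beside 7.1% and 10.3% of the chip. Atf4, the activator itself, read 10.78 and 10.82 without forskolin and 10.99 and 11.06 with it, a rise of 0.22 ± 0.04 (limma adjusted p = 0.0164), which was not called without forskolin replicate 2 (0.0688). Chac1, which degrades glutathione and is an ATF4 target, rose 1.23-fold, with an adjusted p of 0.0547 without forskolin replicate 1, 0.0503 without forskolin replicate 2 and 0.0532 with the replicate block. Cebpb read 10.39 and 10.44 without forskolin and 11.37 and 11.28 with it and rose 1.88-fold (limma adjusted p = 4e-06). Asns, asparagine synthetase, measured 0.08 (limma adjusted p = 0.307) and the amino acid transporter subunit Slc3a2 0.13 (0.0833). Ddit3 measured 0.17, Slc7a5 0.14, and Trib3 0.16, 0.17 and 0.07 in its probe sets. The serine enzymes Psat1 and Phgdh measured -0.03 and -0.03, Mthfd2 -0.07 and Shmt2 0.01. None of these was called. The difference between the synthetases and the genes of this list was not tested.

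**Figure D4:**
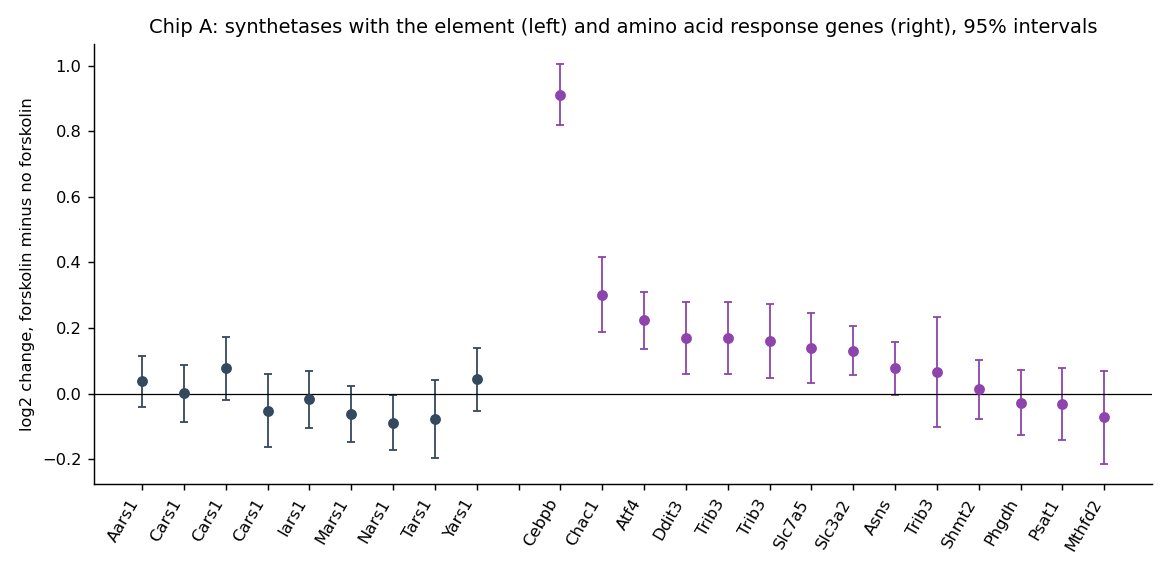
Log2 change on chip A with 95% intervals for the 9 tested probe sets of the 7 synthetases whose promoter window holds the C/EBP-ATF element (left) and for 14 probe sets of the amino acid response list, in order of change (right). The synthetases lie between -0.09 and 0.08, while Cebpb, Chac1 and Atf4 are called higher.

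The remaining cytosolic synthetases were close to 0 on chip A, with 0.01 for Gars1, -0.02 for Kars1, -0.002 for Lars1, 0.01 for Sars1, 0.02 for Vars1 and -0.01 for Wars1. Gars1 and Kars1 each encode both the cytosolic and the mitochondrial enzyme. On chip B the values were 0.04 for Gars1, 0.0041 for Vars1 and -0.00089 for Wars1. Lars1, for leucine, read 7.50 and 7.57 without forskolin and 7.63 and 7.65 with it on chip B, and Sars1, for serine, 6.92 and 6.92 without forskolin and 6.99 and 7.06 with it. Both had the forskolin arrays above, with changes of 0.11 ± 0.08 and 0.10 ± 0.08 (limma adjusted p = 0.981 and 0.993). Probe sets of Cars1, Kars1 and Nars1 on chip B and of Iars1 on chip A lay under the filter.

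The mitochondrial synthetases had a median change of -0.09 on chip A, over 6 probe sets of 5 genes, without a call. The median over the chip was -0.01, and 3.3% of the chip were called. At an unadjusted p under 0.05 limma had 0 higher and 3 lower, beside 7.1% and 10.3% of the chip. These probe sets were dim, at 7.62 to 8.37 without forskolin, where the median of all members was 10.09. Their median standard error was 0.05, against 0.04 over all members. Hars2, for histidine, read 7.94 and 7.95 without forskolin and 7.78 and 7.82 with it, a change of -0.15 ± 0.04 (limma adjusted p = 0.146). Fars2, for phenylalanine, read 7.63 and 7.60 without forskolin and 7.38 and 7.51 with it (-0.17 ± 0.06, 0.175), and Vars2, for valine, 7.75 and 7.73 without forskolin and 7.68 and 7.46 with it (-0.17 ± 0.07, 0.261). In all 3 the forskolin arrays lay below the controls, 3 of 6 probe sets or 50%, beside 28.0% of the chip. Without forskolin replicate 1 the class median was -0.05, and leaving out each other array gave -0.11 to -0.07. Tars2 measured -0.04 and 0.01 in its 2 probe sets and Cars2 0.04.

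On chip B, 12 of 13 probe sets of mitochondrial synthetases were tested and none was called by limma, with 1, of Nars2, lower at an unadjusted p under 0.05. Over the whole chip limma called 0.159% in either direction and had 3.33% lower and 1.64% higher at that unadjusted p. Nars2, for asparagine, read 6.29 and 6.19 without forskolin and 5.91 and 6.06 with it, a change of -0.25 ± 0.10 (limma adjusted p = 0.977). Hars2 read 6.97 and 7.17 without forskolin and 6.97 and 6.71 with it (-0.23 ± 0.12), where forskolin replicate 1 lay below no forskolin replicate 1 by less than the rounding, and Rars2, for arginine, 7.84 and 7.95 without forskolin and 7.66 and 7.78 with it (-0.17 ± 0.09). In these genes and in Cars2 (-0.13) the forskolin arrays lay below the controls, in Ears2 they lay above in 1 of its 2 probe sets (0.07), and in the other 7 probe sets the groups overlapped. That is 4 of 12 below, or 33.3%, against 22.2% of the chip. The class median was -0.05, but -0.01 without no forskolin replicate 2 and -0.13 without no forskolin replicate 1. Hars2 was the gene of this class with the forskolin arrays below on both chips. Cars2, the only other one tested on both, was 0.04 on chip A with overlapping groups.

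**Figure D5:**
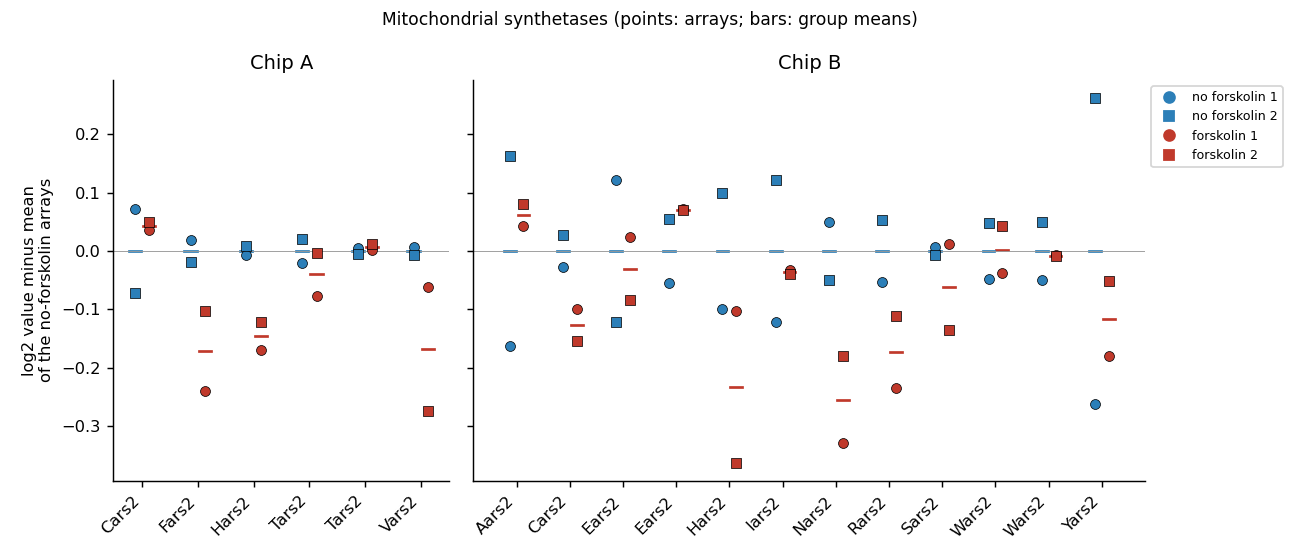
Log2 values of the mitochondrial synthetases on chip A (6 probe sets) and chip B (12), each array minus the mean of the 2 no forskolin arrays of its chip; circles are replicate 1, squares replicate 2, and bars group means. Forskolin points of Fars2, Hars2 and Vars2 on chip A and of Cars2, Hars2, Nars2 and Rars2 on chip B lie below both control points.

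The wider pathway was followed through gene lists. Of 11 factors of mitochondrial translation, 9 were tested, in 12 probe sets, of which 1 was called lower and 11 had values below 0. On chip A these were 1 and 5 of 5, where 1.26% of the chip were called lower and 55.0% were below 0, and on chip B 0 and 6 of 7, where 61.8% were below 0. The called gene was Mtfmt, which formylates the initiator methionyl-tRNA of mitochondria. It read 7.83 and 7.75 without forskolin and 7.57 and 7.54 with it, a fall of 0.24 ± 0.05 (limma adjusted p = 0.0394). That call was lost in 5 of the 9 alternatives, with adjusted p up to 0.151. The elongation factor Tufm measured -0.04 on chip A, and Mtif2, for initiation, -0.26 on chip B. None of the 9 synthetase partners and off-pattern synthetases was called by limma in 15 tested probe sets, with 0 higher and 0 lower at an unadjusted p under 0.05 and changes from -0.08 to 0.19. Of the 15, 8 were on chip A, where limma called 3.3% of the chip, and 7 on chip B, where it called 0.159%. At an unadjusted p under 0.05, limma had 7.1% of chip A higher and 10.3% lower, and 1.64% and 3.33% of chip B. On chip A, Eprs1, the enzyme for glutamate and proline, measured -0.03, and the scaffold proteins Aimp1 and Aimp2 -0.04 and 0.04.

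Of 9 tested genes of termination, recycling and ribosome rescue, limma called none, in 13 probe sets from -0.09 to 0.11. At an unadjusted p under 0.05 it had 1 higher and 1 lower, both among the 8 measured with chip A. Over that chip limma called 3.3% in either direction and had 7.1% higher and 10.3% lower at that unadjusted p. Chip B carried the other 5, with 0 higher and 0 lower. Its shares were 0.159% called, 1.64% higher and 3.33% lower. The release factor Etf1 measured 0.05 and the rescue factors Pelo and Hbs1l 0.11 and -0.09 on chip A. Limma made no call among the 7 tested enzymes of hypusine and diphthamide synthesis, with 0 higher and 0 lower at an unadjusted p under 0.05, where Dhps, which starts the hypusine of eIF5A, measured -0.06. Of their 8 tested probe sets, 6 were on chip A and 2 on chip B, beside the shares of each chip given above.

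Calls were also made among regulators of initiation. Of 29 genes of this list 26 were tested, in 44 probe sets, with 2 called higher, 2 lower and 40 not called. All 4 calls were among the 35 probe sets on chip A, where 2.03% of all tested probe sets were called higher and 1.26% lower. Ddit4, which restrains mTOR complex signalling, read 9.59 and 9.62 without forskolin and 10.83 and 10.78 with it and rose 2.3-fold. Ppp1r15a, the subunit that directs a phosphatase to eIF2 and so opposes the eIF2 kinases, read 8.84 and 8.89 without forskolin and 9.64 and 9.55 with it and rose 1.66-fold. The limma adjusted p was 3.1e-05 for Ppp1r15a and smaller than the digits kept for Ddit4. Over the 10 alternatives the change ran from 1.18 to 1.22 for Ddit4 and from 0.69 to 0.78 for Ppp1r15a. Its relative Ppp1r15b measured 0.18 (limma adjusted p = 0.297). Paip2b, which keeps the poly(A)-binding protein from eIF4G, read 9.03 and 9.08 without forskolin and 8.81 and 8.67 with it, a fall of 0.32 ± 0.05 (limma adjusted p = 0.0147). Without forskolin replicate 2 its adjusted p was 0.0542, and with the replicate block 0.0816. The first of the 2 probe sets of Tsc1, which restrains mTOR complex signalling with Tsc2, read 8.46 and 8.52 without forskolin and 8.25 and 8.20 with it and fell by 0.26 ± 0.04 (limma adjusted p = 0.0166). Its other probe set measured 0.10. The adjusted p of Tsc1 was 0.0779 without forskolin replicate 2 and 0.0834 with the replicate block. The kinase Mtor itself measured -0.02, Rps6kb1 0.03 and -0.0011, and the eIF4E kinases Mknk1 and Mknk2 -0.02 and -0.02.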

How the data were processed

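Total RNA of PC12 cells was measured on 2 chips in 8 arrays. The log2 values are those the authors deposited, 1 per probe set and array, and the background correction, summary and scaling behind them are not stated in the labels or file headers. That they are log2 was inferred from their range of 2.88 to 13.72. No detection calls or intensities were used, so closeness to background is unknown. Array medians differed by less than 0.1 on each chip and the deposited scaling was kept. Gene symbols came from GEO's annotation of the chips, updated by gene number to RefSeq (GRCr8), which changed no member's symbol. Each chip was fitted alone with limma 3.58.1 in R 4.3.3 (lmFit, eBayes with trend, two-sided, n = 2 arrays per group), after leaving out probe sets under the 30th percentile of mean linear value (11106 kept on chip A, 10693 on chip B), with Benjamini-Hochberg adjustment over the chip and a threshold of 0.05. The fit was tested on simulated data. The standard errors and p-values use a variance that eBayes draws partly from other probe sets of like brightness on the chip. A standard error is thus not the spread of the arrays of that probe set alone. The number of arrays limits the precision. Members and lists were chosen with earlier results of these data known. Named with array values were genes with a called probe set and, per class and chip, the 3 with the smallest p; genes tested on both chips are given by their changes, and array values of further genes were chosen after they were seen. Promoters are RefSeq windows, and some stretches are not reported here. Alternatives were median centring, quantile normalization, no and a 50th percentile filter, eBayes without trend, a replicate block and leaving out each array.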

Additional observations from a re-analysis of the deposited data

How the results depend on the processing

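The count of members called lower on chip A was 1, and it was 2 with median centring, when Eif2b5 joined Eif2ak2, and 0 with the replicate block. Leaving out each array in turn gave 0 to 1. With the 50th percentile filter, which leaves Eif2ak2 untested, the 1 call was Eif2b5. The count called higher on chip A and both counts on chip B were 0 in every alternative run. The median change on chip A moved by less than the spread between replicates, while that on chip B ranged from -0.125 to 0.0228 when each array was left out. The cause was not tested. Of the values of named members under the alternatives, 330 kept their sign and their side of the threshold, 2 lost the call (both of Eif2ak2), 2 gained one (both of Eif2b5) and 9 turned sign, all 9 uncalled and all on leaving out 1 array. Their ranges were -0.0262 to 0.0465 for Eif4enif1, -0.122 to 0.0543 for Eif4ebp2 and -0.0354 to 0.0135 for Eef1akmt4 on chip A, and -0.177 to 0.0786 for Eif4enif1, -0.352 to 0.0847 for Eef1akmt2 and -0.0548 to 0.00525 for Eef1a2 on chip B. The replicate numbers are not known to pair arrays. Deviations of same-numbered arrays correlated at 0.0034 on chip A and 0.197 on chip B across probe sets, and the replicate block gave 159 higher and 46 lower calls over chip A, against 226 and 140 without it. Class medians without each array, and the called genes of the pathway and interferon lists under these settings, were added after seeing the data.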

Other observations

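Because Eif2ak2 is an interferon-induced gene, 25 genes of the interferon response were listed after its value had been seen, so they support nothing and were not tested as a list. Of these, 15 were tested, in 20 probe sets, of which 1 was called lower, 0 higher, and 16 had values below 0. On chip A, 1 of 17 was called lower and 13 were below 0, beside 1.26% and 55.0% of the chip. At an unadjusted p under 0.05, 6 of these 17 were lower and 0 higher, beside 10.3% and 7.1%. On chip B all 3 were below 0, beside 61.8%. The median on chip A was -0.07, against -0.01 over all tested probe sets. The called gene was Irf1, a transcription factor of interferon responses, which read 8.35 and 8.35 without forskolin and 8.05 and 8.12 with it, a fall of 0.26 ± 0.04 (limma adjusted p = 0.0171). That call was lost without forskolin replicate 1 (0.0787) and with the replicate block (0.0737). Irf9, the DNA-binding part of an interferon-activated complex, measured -0.20 on chip A (limma adjusted p = 0.0744) and -0.16 on chip B, and Bst2, an antiviral membrane protein, -0.17 (0.0779). Others were above 0, with 0.09 for Usp18 and 0.05 for Ifit1, and Isg15 measured -0.01 on chip B.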
